A study of Homo sapiens with 15 samples.

Results

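The genes described here are 8 cytokine genes of the IL1 and IL6 type that endothelial cells can make: IL1A, IL1B, IL33, IL6, IL11, LIF, CSF2 and CSF3. They were chosen by name, with earlier results of these data known. Each gene was read from the brightest (by mean over all 15 arrays) of its probesets that carry exactly 1 gene symbol. Of the 8, 7 had such a probeset, each of them 1, out of 18417 genes measured in this way, and CSF2 was not analysed here. The study profiled RNA on whole-transcript arrays from human umbilical vein endothelial cells (HUVEC, called a cell line in the labels) and from exosomes, vesicles that cells release into their medium. Its title asks about CD47-dependent activities of vesicles from T cells; CD47 is a cell surface receptor of thrombospondin-1.

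There were 5 groups of 3 arrays. Untreated HUVEC have the treatment "none". HUVEC of another group were kept with exosomes of Jurkat T cells, a leukaemia line that carries CD47 (JK exosomes), and those of a further group with exosomes of JinB8, a CD47-deficient mutant of Jurkat (JINB8 exosomes). By the labels' protocols the incubation lasted 6 h in EGM2 medium, and ExoQuick reagent was used to collect the vesicles from concentrated conditioned medium of cells grown with human serum. The remaining groups are RNA of JK and JINB8 exosomes themselves. CD47 loss is represented by a single mutant line, and the labels name no mock precipitate for the untreated cells. The labels do not say whether the arrays of a group came from separate cultures. The spread behind each p-value and each interval, and these values with it, may therefore be technical.

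IL1A and IL1B are the ligands of the IL1 receptor: both bind IL1R1, which pairs with IL1RAP and signals through MYD88, IRAK kinases and NF-kB. IL33 is a nuclear cytokine of the same family whose receptor is IL1RL1 (ST2). IL6, IL11 and LIF bind receptors that share the signal chain IL6ST (gp130) and act through JAK kinases and STAT3, while CSF2 and CSF3 are colony-stimulating factors for myeloid cells. Endothelium is a known source of IL6 and the colony-stimulating factors, and IL1 acting on endothelium is known to raise IL6, chemokines and adhesion molecules.

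The sequences just upstream of the start sites of the members whose window held a searched motif are shown because the results turn on IL1A, IL1B and IL6, which fell together, and on IL11, which did not pass the test. RefSeq windows (GRCh38.p14) were at hand for 6 of the 8 members, and the 250 bases before each start were searched on both strands for 4 motifs: the NF-kB consensus, the AP-1 motif TGANTCA, the CRE core TGACGTC and the C/EBP motif TTGCNNAA. Capitals mark matches, and each sequence runs 5′ to 3′ on the gene's own strand. The IL1A window (chr2:112784494-112784743, minus strand) and the IL1B window (chr2:112836780-112837029, minus strand) lie on the same chromosome; a further window listed for IL1A, which overlaps this one, is not shown. The IL6 window (chr7:22726950-22727199, plus strand) and the IL11 window (chr19:55370464-55370713, minus strand) lie elsewhere.
IL1A: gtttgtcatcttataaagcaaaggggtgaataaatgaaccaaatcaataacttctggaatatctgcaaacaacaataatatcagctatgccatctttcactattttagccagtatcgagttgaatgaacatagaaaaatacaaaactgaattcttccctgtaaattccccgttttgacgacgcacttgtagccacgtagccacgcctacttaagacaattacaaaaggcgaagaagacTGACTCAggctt
IL1B: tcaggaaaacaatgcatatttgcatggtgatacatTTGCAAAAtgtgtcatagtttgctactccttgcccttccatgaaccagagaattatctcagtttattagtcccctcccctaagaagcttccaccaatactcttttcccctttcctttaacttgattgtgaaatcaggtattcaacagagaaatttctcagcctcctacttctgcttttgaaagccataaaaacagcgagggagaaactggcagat
IL6: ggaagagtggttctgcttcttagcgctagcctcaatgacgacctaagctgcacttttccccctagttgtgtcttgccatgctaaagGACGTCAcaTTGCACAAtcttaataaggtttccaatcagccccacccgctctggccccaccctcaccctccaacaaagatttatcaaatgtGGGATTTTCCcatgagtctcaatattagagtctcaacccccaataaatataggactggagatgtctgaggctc
IL11: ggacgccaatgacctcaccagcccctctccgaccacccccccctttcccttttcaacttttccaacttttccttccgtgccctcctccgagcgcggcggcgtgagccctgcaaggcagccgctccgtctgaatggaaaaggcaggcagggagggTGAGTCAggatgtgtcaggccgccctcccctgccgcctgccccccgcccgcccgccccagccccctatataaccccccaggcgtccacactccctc
The IL6 window held the NF-kB consensus as GGGATTTTCC, 73 to 64 bases before the start, a CRE core on the opposite strand at 164 to 158 bases (read as GACGTCA on the gene's strand) and a C/EBP motif TTGCACAA at 155 to 148 bases. IL1A held the AP-1 motif TGACTCA at 12 to 6 bases (its further window held TGACTCA at 105 to 99 and TGAGTCA at 55 to 49 bases before its own start), IL11 the AP-1 motif TGAGTCA at 96 to 90 bases, and IL1B the C/EBP motif TTGCAAAA at 215 to 208 bases. The NF-kB consensus stood in 5.21% of all 35114 windows of this length, the AP-1 motif in 6.57%, the CRE core in 3.12% and the C/EBP motif in 9.05%. The windows of IL33 and CSF2 held no match to the 4 motifs. A match is a string of letters in this window only.

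The deposited log2 values of the untreated HUVEC arrays lay on a level of their own: their array medians averaged 6.97 ± 0.06 (SD, n = 3), against 5.14 ± 0.03 (JK) and 5.11 ± 0.02 (JINB8) in treated HUVEC, and 5.11 and 5.12 for exosome RNA. This array-wide difference runs along the treatment, and level and treatment cannot be told apart in comparisons with untreated HUVEC. The HUVEC values below are therefore log2 values after quantile normalization over the 9 HUVEC arrays, and a change is relative to the other genes on the arrays. On the deposited values nearly every gene was lower in the treated cells, with a median difference of -1.68 with JK and -1.71 with JINB8 exosomes. Replicates of a group correlated at 0.986 to 0.995 over all probesets, and no pair of arrays held identical values. The median of 13 endothelial markers lay above 93.9% to 97.1% of genes in the HUVEC arrays, and the median of 15 T cell markers above 57.8% to 70.3% in exosome RNA against 11.1% to 22.9% in HUVEC. Markers of unrelated cells stood higher in exosome RNA too: the median of 10 myeloid markers lay above 51.1% to 56.1% of genes there against 23.0% to 31.5% in HUVEC, and that of 12 mural cell and fibroblast markers above 51.4% to 55.1% against 37.4% to 44.8%. The summed log2 value of the endothelial markers was 127 to 129 in untreated cells, 128 to 131 with JK and 128 to 131 with JINB8 exosomes.

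After 6 h with JK exosomes, IL1A, IL1B and IL6 were lower in HUVEC than in untreated cells, and LIF, IL11, IL33 and CSF3 did not pass the test. With JINB8 exosomes the same 3 genes fell and LIF fell as well. IL1A was 8.35-fold lower with JK and 9.36-fold lower with JINB8 exosomes, while IL1B and IL6 were between 2.32-fold and 2.68-fold lower. No member rose in either comparison, and none passed between cells given the 2 kinds of exosome. The 2 comparisons share the untreated arrays, so their values are given side by side and are not independent of each other.

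**Figure D1:**
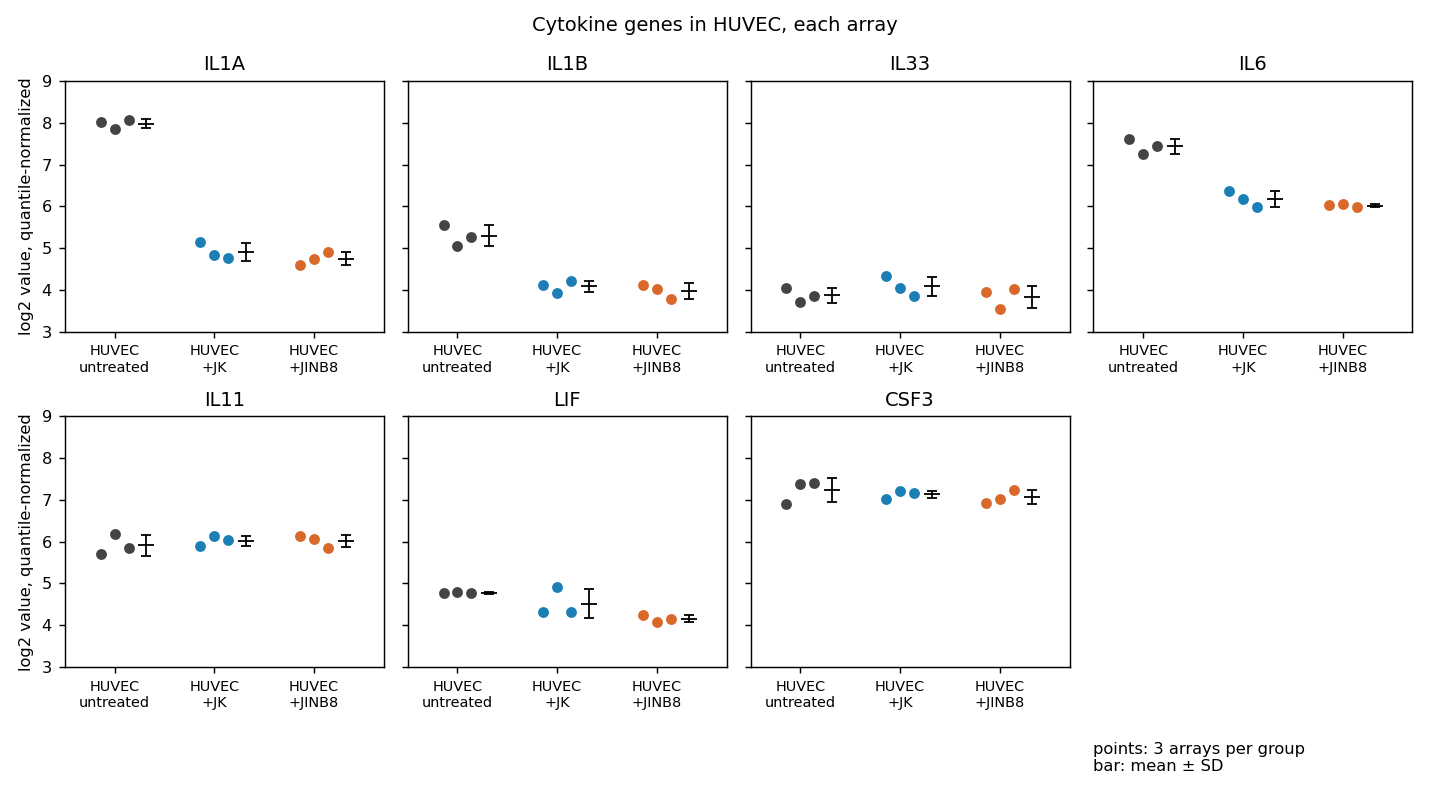
Log2 value after quantile normalization (y axis) of the 7 measured cytokine genes in each HUVEC array, by group (x axis); points are the 3 arrays of a group and bars the mean ± SD. IL1A, IL1B and IL6 are lower in every treated array than in every untreated one, whereas IL11, IL33 and CSF3 overlap between groups.

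IL1A encodes IL1 alpha, a cytokine active also in its precursor form and known as an alarm signal of damaged cells. Its log2 values were 8.01, 7.85 and 8.07 in untreated HUVEC, 5.16, 4.84 and 4.75 with JK exosomes, and 4.59, 4.75 and 4.92 with JINB8 exosomes. Every treated array was lower than every untreated one, by far more than the replicates differed, and the treated groups overlapped. The difference was -3.06 ± 0.12 (log2, limma's standard error) with JK exosomes (limma adjusted p = 1.57e-08) and -3.23 ± 0.12 with JINB8 exosomes (limma adjusted p = 1.06e-08). Counted from the lowest difference, IL1A stood at place 24 with JK and place 21 with JINB8 exosomes among the 18417 genes. In untreated cells its value lay above 78.0% of genes and in treated cells above 27.1% (JK) and 24.2% (JINB8).

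IL1B encodes IL1 beta, which is made as an inactive precursor and cut by caspase-1. It read 5.56, 5.06 and 5.26 in untreated cells, 4.11, 3.94 and 4.20 with JK exosomes and 4.13, 4.03 and 3.77 with JINB8 exosomes. The untreated arrays stood above all treated ones, and the treated groups overlapped. The difference was -1.21 ± 0.14 with JK exosomes (limma adjusted p = 3.01e-05) and -1.32 ± 0.14 with JINB8 exosomes (limma adjusted p = 1.53e-05). The gene lay low on these arrays, above 33.8% of genes in untreated and 13.2% and 11.5% in treated cells, and without detection calls its signal could not be set against background. In whole cultures fewer cells that make a transcript and less of it per cell cannot be told apart. Among 10 markers of myeloid cells, which are known for making IL1B, 5 were lower and 1 higher with JK exosomes. With JINB8 exosomes 3 were lower and 0 higher. Of all genes, 22.4% were lower and 26.2% higher with JK exosomes, and 23.3% and 26% with JINB8 exosomes. CD14, picked out after its values were seen, differed by -0.55 and -0.64. The balance of the myeloid markers depends on the scaling. After median centring CD14, CSF1R, ITGAM and TYROBP were lower in both comparisons, and LYZ, AIF1 and FCGR3A higher, all passing. On that scale CD163 was also higher with JINB8 exosomes (0.33, limma adjusted p = 0.0405). On the quantile scale the summed log2 value of the 10 myeloid markers was 50.1 to 51.0 in untreated cells, 48.7 to 48.9 with JK and 49.0 to 49.3 with JINB8 exosomes. Their part in the IL1B result was not tested.

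IL6, the founding member of its family, acts on endothelium mainly with soluble receptor. Its values were 7.62, 7.26 and 7.43 in untreated cells, 6.37, 6.18 and 5.99 with JK exosomes and 6.02, 6.05 and 5.98 with JINB8 exosomes. All treated arrays lay below all untreated ones. IL6 differed by -1.26 ± 0.11 with JK exosomes (limma adjusted p = 6.38e-06) and by -1.42 ± 0.11 with JINB8 exosomes (limma adjusted p = 2.43e-06). Its value moved from above 70.1% of genes to above 49.3% and 46.4%, so that in treated cells it stood near the middle of the array.

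LIF, a cytokine that binds LIFR together with IL6ST, gave a less even picture. It read 4.76, 4.79 and 4.76 in untreated cells, 4.32, 4.92 and 4.31 with JK exosomes and 4.23, 4.07 and 4.16 with JINB8 exosomes. JK replicate 2 was above all untreated arrays while the other JK arrays were below them, and all JINB8 arrays were below both other groups. With JINB8 exosomes LIF fell by 0.62 ± 0.14 on the log2 scale (limma adjusted p = 0.00364). With JK exosomes the difference was -0.25 ± 0.14 (95% interval -0.56 to 0.06, limma adjusted p = 0.159). That call rests on JK replicate 2 and the scaling: without this array the difference was -0.46 (limma adjusted p = 0.0022), after median centring -0.43 (limma adjusted p = 0.0194) and after cyclic loess -0.41 (limma adjusted p = 0.0287).

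IL11, known for roles in fibrosis and platelet production, read 5.70, 6.18 and 5.85 in untreated cells, 5.89, 6.14 and 6.03 with JK exosomes and 6.12, 6.07 and 5.85 with JINB8 exosomes. The groups overlapped, and the differences were 0.11 ± 0.13 (95% interval -0.17 to 0.39, limma adjusted p = 0.509) and 0.10 ± 0.13 (-0.17 to 0.38, limma adjusted p = 0.521). CSF3, the growth factor of neutrophils, read 6.90, 7.39 and 7.41 in untreated cells, 7.02, 7.21 and 7.16 with JK and 6.93, 7.02 and 7.25 with JINB8 exosomes. Here too the groups overlapped, with differences of -0.10 ± 0.14 (95% interval -0.40 to 0.20, limma adjusted p = 0.560) and -0.17 ± 0.14 (-0.47 to 0.13, limma adjusted p = 0.331). Untreated replicate 1 was the lowest of all 9 for CSF3, and without it the JINB8 difference was -0.34 (limma adjusted p = 0.0275).

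IL33 read 4.05, 3.71 and 3.85 in untreated cells, 4.33, 4.05 and 3.86 with JK exosomes and 3.94, 3.54 and 4.02 with JINB8 exosomes. Its groups overlapped as well. The differences were 0.21 ± 0.15 (95% interval -0.12 to 0.55, limma adjusted p = 0.264) and -0.04 ± 0.15 (-0.37 to 0.30, limma adjusted p = 0.863). IL33 lay above only 9.38% to 13.2% of genes in the means of the HUVEC groups, near the low end of the arrays. On the deposited values IL11, CSF3 and IL33 were lower with either kind of exosome, like nearly all genes: with JK exosomes IL11 by -1.72, CSF3 by -1.73 and IL33 by -1.50. On the same scale IL1A differed by -4.75, IL1B by -3.13, IL6 by -2.92 and LIF by -2.22.

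**Figure D2:**
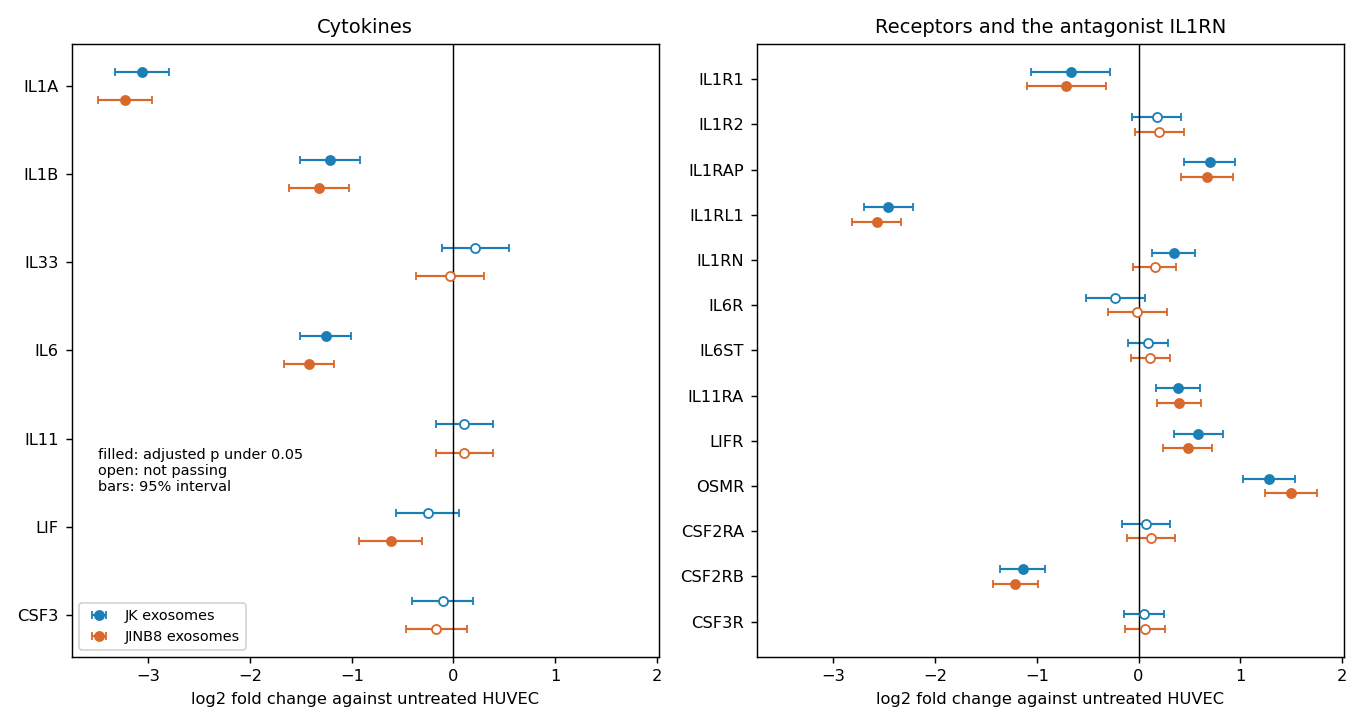
Log2 difference from untreated HUVEC (x axis) of each measured cytokine gene (y axis) with JK and with JINB8 exosomes, with 95% intervals of the limma fit; the line at 0 marks no difference after quantile normalization. The intervals of IL1A, IL1B and IL6 lie below 0 for both kinds of exosome, that of LIF for JINB8 exosomes, and those of IL11, IL33 and CSF3 cross 0.

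By count, 3 of 7 members were lower with JK exosomes and 4 of 7 with JINB8 exosomes at an adjusted p under 0.05. Of all genes tested, 22.4% were lower with JK and 23.3% with JINB8 exosomes by the same rule (48.6% and 49.3% in either direction). No member was higher, as 26.2% and 26% of all genes were. The median difference of the 7 members was -0.25 and -0.62, beside 0.02 over all genes in either comparison. IL1A, IL1B and IL6 were lower by at least 2-fold in both comparisons, which 3.45% and 3.52% of all genes were. Groups that did not overlap with the lower values in treated cells were seen in 25.9% and 27.1% of all genes. Because the members were chosen with earlier results of these data known, their counts are no independent evidence of a direction.

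Between HUVEC given JINB8 and HUVEC given JK exosomes, the comparison that bears on CD47 in the vesicles, 0 of 7 members passed, and 0% of all genes did (limma, smallest adjusted p = 0.0606, 1894 genes at an unadjusted p under 0.05). The member differences ran from -0.36 to -0.00, with a median of -0.16 beside -0.01 over all genes. For IL1A the difference was -0.16 (95% interval -0.43 to 0.10) and for IL6 -0.16 (-0.41 to 0.09). A difference of 0.5 in either direction lay outside these intervals, which rest on a spread between arrays that may be technical. IL1B differed by -0.11 (-0.41 to 0.19), IL33 by -0.25 (-0.58 to 0.08), CSF3 by -0.06 (-0.36 to 0.24) and IL11 by -0.00 (-0.28 to 0.28). LIF had the lowest difference of the members, -0.36 (-0.67 to -0.05, limma adjusted p = 0.408), and its 3 JINB8 arrays were all below its 3 JK arrays, as held for 8.58% of all genes. Without JK replicate 2 its difference was -0.17 (limma adjusted p = 0.766).

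**Figure D3:**
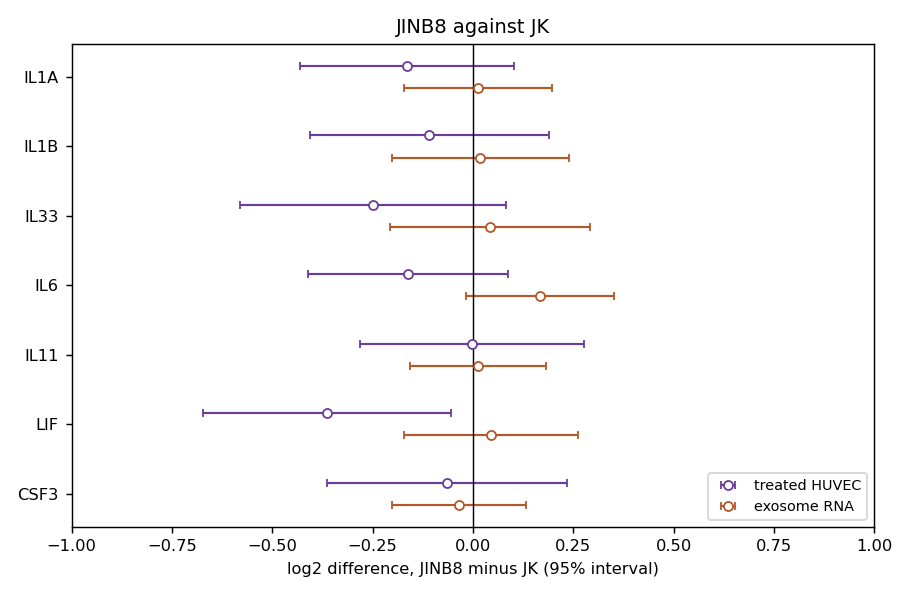
Log2 difference between the JINB8 and the JK group (x axis) of each measured cytokine gene (y axis), in treated HUVEC and in exosome RNA, with 95% intervals of the limma fits. Only the LIF interval in HUVEC excludes 0, with an adjusted p of 0.408 in limma.

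In exosome RNA the members took other places on the array than in HUVEC. The deposited values of IL1A were 3.57, 3.61 and 3.74 in JK and 3.78, 3.56 and 3.62 in JINB8 exosomes, and those of IL6 were 3.71, 3.75 and 3.77 against 3.85, 3.81 and 4.07. By group mean both genes lay above 8.90% to 14.1% of genes, lower than in any HUVEC group. IL1B, by contrast, read 5.58, 5.70 and 5.45 in JK and 5.81, 5.48 and 5.49 in JINB8 exosomes, above 64.3% and 64.4% of genes. IL11 read 6.65, 6.78 and 6.58 against 6.70, 6.68 and 6.66. CSF3 read 7.60, 7.58 and 7.52 against 7.44, 7.57 and 7.60. These places were high: IL11 lay above 94.0% and 93.8% of genes and CSF3 above 99.0% and 98.8%, with no detection call to say whether a transcript was present. LIF read 4.26, 4.61 and 4.49 against 4.55, 4.36 and 4.59, and IL33 3.29, 3.50 and 3.51 against 3.35, 3.75 and 3.32.

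None of the 7 members passed between JINB8 and JK exosome RNA, where 0.679% of all genes did. IL6 was 0.17 higher in JINB8 exosomes (95% interval -0.02 to 0.35, limma adjusted p = 0.678), with all 3 JINB8 arrays above all 3 JK arrays, an order that 7.35% of all genes showed. The other members differed by -0.03 to 0.05. In this comparison 1 gene of all the lists used here passed, the T cell marker CD1E, which was higher by 1.16 on the log2 scale in JINB8 exosomes.

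Ordered by place on the array, IL1A and IL6 ran from untreated HUVEC through the treated groups to exosome RNA. In that order untreated cells did not overlap JK-treated cells, the treated groups overlapped each other, and JINB8-treated cells did not overlap exosome RNA. IL1B ran from exosome RNA, whose groups overlapped, through untreated HUVEC to the overlapping treated groups. IL11 and CSF3 stood highest in exosome RNA, apart from all HUVEC arrays, and their HUVEC groups overlapped. For LIF the exosome, untreated and JK-treated groups overlapped as neighbours and JINB8-treated cells lay below, and for IL33 every neighbouring pair overlapped. By deposited value the order differed where array levels did: IL11 averaged 7.15 ± 0.24 in untreated HUVEC and 6.67 ± 0.10 in JK exosome RNA (SD, n = 3), CSF3 8.32 ± 0.19 and 7.57 ± 0.04, and IL1B 6.61 ± 0.20 and 5.57 ± 0.13.

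**Figure D4:**
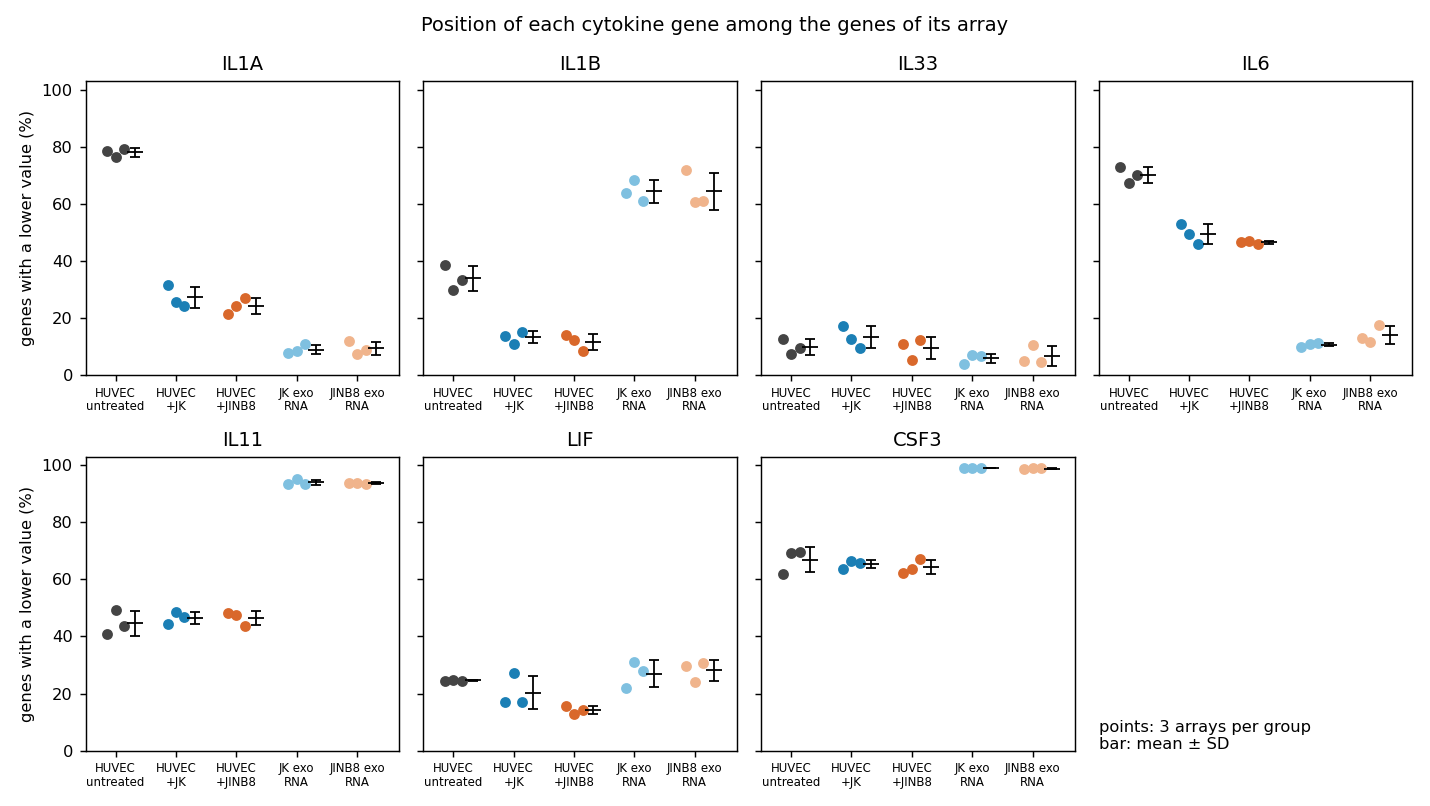
Share of the 18417 genes with a lower value on the same array (y axis, percent) for each measured cytokine gene in the 15 arrays, by group (x axis); points are arrays. IL1A and IL6 are highest in untreated HUVEC, while IL1B, IL11 and CSF3 are highest in exosome RNA.

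Receptors of these cytokines changed in both directions, as did the genes of the array at large. IL1RL1, the IL33 receptor ST2, differed by -2.46 ± 0.11 with JK exosomes (limma adjusted p = 3.93e-08) and -2.57 ± 0.11 with JINB8 exosomes (2.81e-08). CSF2RB, the shared chain of the CSF2 receptor, differed by -1.14 and -1.21, and IL1R1 by -0.67 and -0.71, all of them passing. OSMR, which with IL6ST forms the oncostatin M receptor, rose by 1.29 ± 0.12 with JK exosomes (limma adjusted p = 6.57e-06) and by 1.50 ± 0.12 with JINB8 exosomes (2.04e-06), whereas on the deposited values it differed by -0.25 and -0.01. The co-receptor IL1RAP (0.70 and 0.67), LIFR (0.59 and 0.48) and IL11RA (0.39 and 0.40) were higher after quantile normalization and lower on the deposited values. IL1RN, the IL1 receptor antagonist, was 0.34 higher with JK exosomes (limma adjusted p = 0.0109), not after median centring (0.20, adjusted p = 0.208), and 0.16 higher, not passing, with JINB8 exosomes.

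The signal chain IL6ST differed by 0.09 and 0.12, passing in neither comparison but passing after median centring (0.60 and 0.70). IL6R differed by -0.23 and -0.01, and neither passed. The decoy receptor IL1R2, CSF2RA and CSF3R gave differences of 0.05 to 0.20 without passing. Of 16 listed receptors, 4 were higher and 5 lower with JK exosomes and 4 higher and 6 lower with JINB8 exosomes, with a median of 0.03 in either comparison. After median centring 6 were higher and 5 lower with JK, and 6 higher and 6 lower with JINB8 exosomes. IL18R1, a receptor chain for IL18 picked out after its values were seen, differed by -1.87 and -1.86. The median differences of this list and of those that follow stand beside 0.02 over all genes. Their counts on the quantile scale stand beside 26.2% of all genes higher and 22.4% lower with JK exosomes. With JINB8 exosomes these shares were 26% and 23.3%. On the quantile scale the receptor counts lay near them. After median centring 6462 of the 18417 genes were higher and 3587 lower with JK exosomes. With JINB8 exosomes 7025 were higher and 3450 lower. The median-centred counts of this list and of those that follow stand beside these numbers.

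Of 17 other measured ligands of these families, 3 were higher and 4 lower with JK exosomes, and 0 higher and 4 lower with JINB8 exosomes. After median centring 5 were higher and 4 lower in both comparisons. CSF1, the macrophage growth factor, differed by -0.85 and -0.99, and EBI3, a subunit of IL27, by -0.72 and -0.68, all passing. IL31 was 0.29 higher with JK exosomes, passing, and 0.09 higher with JINB8 exosomes, not passing. After median centring IL31 was higher in both comparisons (0.40 and 0.32, both passing), and on the deposited values lower (-1.39 and -1.52). Its mean log2 values were low, near those of IL33: 3.76 in untreated cells, 4.05 with JK and 3.85 with JINB8 exosomes.

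Among 16 measured genes for the processing and release of IL1, 0 were higher and 7 lower with JK exosomes, and 2 higher and 7 lower with JINB8 exosomes, with medians of -0.07 and -0.10. That balance depends on the scaling: after median centring 6 were higher and 6 lower with JK, and 7 higher and 6 lower with JINB8 exosomes. The channel gene PANX1 differed by -0.94 and -1.01, the protease CASP8 by -1.04 and -0.96, and NINJ1, which is needed for membrane rupture, by -0.80 and -0.78. CAPN1, a calpain of the family that cuts the IL1A precursor, differed by -0.49 and -0.54, a call that median centring ends (-0.23 in either comparison). CASP1, which cuts IL1B and was picked out after its values were seen, differed by -0.80 and -0.67.

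Of 18 measured genes that carry the IL1 signal, 3 were higher and 4 lower with JK exosomes and 5 higher and 8 lower with JINB8 exosomes. After median centring the counts were 8 higher and 2 lower in both comparisons. The kinase gene MAP2K3 differed by -0.97 and -0.84 and IRAK1 by -0.43 and -0.35, while TAB3, a partner of the kinase TAK1, rose by 0.52 and 0.69 on the quantile scale and was lower on the deposited values. MAP3K7, which encodes TAK1, differed by -0.42 and -0.32, and after median centring by -0.13 and 0.04 with no call. The call of IRAK1 with JINB8 exosomes ended after median centring as well (-0.16, limma adjusted p = 0.138).

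Of 16 measured JAK and STAT pathway genes, 3 were higher and 5 lower with JK exosomes and 4 higher and 5 lower with JINB8 exosomes. After median centring 6 were higher and 3 lower with JK, and 7 higher and 3 lower with JINB8 exosomes. STAT5A differed by -0.74 and -0.82, STAT3 by 0.35 and 0.33, the adaptor GRB2 by -0.35 and -0.29 and the feedback inhibitor CISH by -0.31 in either comparison. STAT3 was lower on the deposited values, the calls of GRB2 ended after median centring (-0.12 and -0.02), and those of CISH ended without untreated replicate 2 or 3 and without single treated arrays.

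Of 19 measured genes that IL1 is known to induce in endothelium, 15 were lower and 2 higher in each comparison. The median difference was -1.27 with JK and -1.12 with JINB8 exosomes. PTGS2, the inducible cyclooxygenase, differed by -3.91 ± 0.08 (limma adjusted p = 1.38e-10) and -3.76 ± 0.08 (2.13e-10). The adhesion molecule VCAM1 differed by -2.88 and -2.98, the neutrophil chemokine CXCL8 by -3.18 and -3.08, and the signalling adaptor TRAF1 by -2.09 and -2.40. The higher ones, named after the counts were seen, were CXCL3 (0.64 and 0.49) and the transcription factor gene IRF1 (0.37 and 0.31). Both were lower on the deposited values. The probeset of CXCL3 may share sequence with its near-identical relatives CXCL1 and CXCL2, and theirs with it, which was not tested. The remaining genes, SOD2 and NFKBIA, did not pass in either comparison on the quantile scale. After median centring 14 were lower and 5 higher with JK, and 13 lower and 4 higher with JINB8 exosomes. On that scale CCL2, lower after quantile normalization and picked out after its values were seen, was among the higher ones (0.21 and 0.25). So were SOD2 (0.33 and 0.34) and NFKBIA (0.61 and 0.89), both passing in either comparison. IRF1 no longer passed there with JINB8 exosomes (0.23, limma adjusted p = 0.0813). The list was written with earlier results of these arrays known and is no independent evidence of its direction.

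Of 14 genes known to be induced by STAT3, 7 were lower and 2 higher in each comparison, with medians of -0.29 and -0.24. CEBPB, a transcription factor gene of the acute phase, differed by -0.88 and -0.79 and JUNB by -0.66 and -0.64. The 2 higher ones were OSMR and the kinase gene PIM1 (0.54 and 0.60), the latter lower on the deposited values. After median centring 4 were lower and 3 higher with JK, and 5 lower and 4 higher with JINB8 exosomes.

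**Figure D5:**
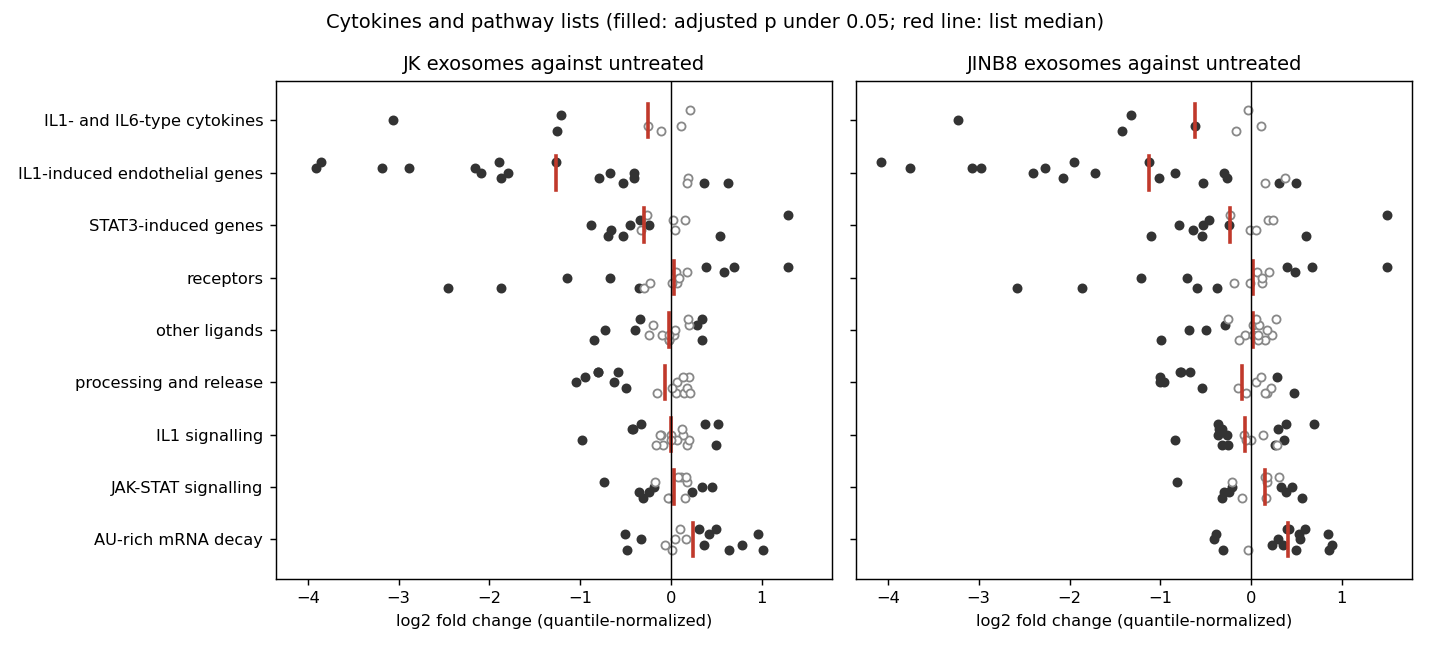
Log2 difference from untreated HUVEC (x axis) of the measured genes of each list (y axis) with JK and with JINB8 exosomes; points are genes and the bar is the list's median. The list induced by IL1 has medians of -1.27 and -1.12, and the medians of the receptors are 0.03 in both comparisons.

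For each member that passed against untreated cells, the genes whose values ran most like it over the 9 HUVEC arrays were found by Pearson correlation, a description over arrays that share the step between untreated and treated cells. For IL1A these were MYO1E and NCKAP5 (both r = 0.998) and IL1RL1 (r = 0.998), whose differences with JK exosomes were -1.26, -2.53 and -2.46. For IL1B they were ANKRD26P1 (r = 0.994), ARSA (r = 0.993) and ZFAND2A (r = 0.990). For IL6 they were NCLN (r = 0.996), SLC43A2 (r = 0.995) and CAB39 (r = 0.995). For LIF they were PNMA1 (r = 0.984), SH2D1B (r = 0.971) and PLEKHJ1 (r = 0.961), none of which passed with JK exosomes.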

How the data were processed

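RNA of 9 HUVEC and 6 exosome samples was measured on whole-transcript arrays, with 300 ng of total RNA labelled per sample by the labels' protocols. The deposited log2 values were made with Affymetrix Expression Console, per the submitters' processing notes; the sources used here do not give its version, background correction or normalization. There were no detection calls, and the number of arrays limits the precision. Of 33297 probesets, 19460 had 1 gene symbol in the platform annotation, 1754 several and 12083 none; 19429 matched the RefSeq gene table by Entrez identifier, which changed 0 symbols. Each of the 18417 genes took its probeset with the highest mean.

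Groups came from the labels. HUVEC values were quantile-normalized over the 9 arrays and fitted in 1 limma model (6 residual degrees of freedom); exosome RNA was fitted on the deposited values of 6 arrays (4 residual degrees of freedom). Benjamini-Hochberg adjustment ran over 18417 genes, with a threshold of 0.05. R 4.3.3 and limma 3.58.1 were used, tested on simulated data. Alternatives were the deposited values, median centring, cyclic loess, another probeset rule, a filter on dim genes, array weights, a variance trend with robust fitting, the compared arrays alone, a block for the replicate number and leaving out each array.

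The text names all members, 12 receptors and IL1RN, and from each other pathway list up to 4 genes with the smallest p among those passing with JK exosomes, any list gene passing in the other comparisons, and per called member the 3 genes most alike. IL18R1, CASP1, CXCL3, IRF1, CCL2, SOD2, NFKBIA, ZFP36, ZC3H12A and ARID5A stand outside this rule and were named after their values were seen. So do the myeloid markers CD14, CSF1R, ITGAM, TYROBP, LYZ, AIF1, FCGR3A and CD163, also named after their values were seen. Members and lists were chosen with earlier results of these data known.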

Additional observations from a re-analysis of the deposited data

How the results depend on the processing

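IL1A, IL1B and IL6 kept their direction and passed in both comparisons with untreated HUVEC under every alternative that tested them. Not all of these could change the direction. The filter on dim genes, the variance trend and the replicate block leave the difference itself unchanged and bear only on the p-value. Each of these genes had 1 probeset, so the other probeset rule read the same probeset. Outside the deposited values IL1A ran from -3.16 to -2.87 with JK and from -3.33 to -3.01 with JINB8 exosomes, IL1B from -1.35 to -1.06 and from -1.42 to -1.16, and IL6 from -1.37 to -1.14 and from -1.53 to -1.30. On the deposited values 18319 and 18286 genes and 7 of 7 members were called in either comparison, nearly all lower, with IL11 at -1.72 and -1.77 and IL33 at -1.50 with JK exosomes. After median centring CSF3 with JK was 0.051 and IL33 with JINB8 0.16, neither passing. Leaving out the 40% dimmest genes removed IL1B, IL33 and LIF and left 2 members called. Median centring called 6462 genes higher and 3587 lower with JK and 7025 and 3450 with JINB8 exosomes, beside 4829 and 4121, and 4791 and 4283; cyclic loess gave 4606 and 4739, and 4704 and 4831. Leaving out single arrays gave 3 to 4 members with JK and 4 to 5 with JINB8 exosomes, IL11 with JINB8 from -0.0025 to 0.24, and IL33 from -0.13 to 0.12.

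Between JINB8-treated and JK-treated HUVEC 8 genes were called after median centring, 6 after cyclic loess, 7 without dim genes, 25 with variance trend and robust fitting, 285 with array weights and 0 to 2 without single arrays, with 0 members in each. IL11 was 0.0024, 0.0092 and 0.050 after median centring, cyclic loess and array weights, and without single arrays it ran from -0.067 to 0.077 and CSF3 from -0.16 to 0.0045. In exosome RNA IL11 was -0.022, -0.014 and -0.0032 under quantile normalization, cyclic loess and array weights, and IL1B -0.0060 under array weights. Without single arrays 54 to 100 genes were called there, and IL1A ran from -0.050 to 0.064, IL1B from -0.088 to 0.079, IL11 from -0.031 to 0.067, IL33 from -0.096 to 0.12, LIF from -0.049 to 0.12 and CSF3 from -0.065 to 0.015. The cause of these shifts was not tested.

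With the replicate number as a block 8618, 8810, 0 and 104 genes were called in the 4 comparisons and 3, 4, 0 and 0 members, and no member's call changed. Deviations of same-numbered arrays correlated between -0.41 and 0.24, some but not all arrays most with their own number. With 3 arrays a group this cannot tell whether the numbers pair the samples. Limits are the untreated arrays' level of their own, 3 arrays a group and the lack of detection calls.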

Other observations

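Several of these cytokine messages carry AU-rich elements, which set how long a message lasts. Of 16 measured genes for proteins that act on such messages, 8 were higher and 3 lower with JK exosomes and 12 higher and 3 lower with JINB8 exosomes, with median differences of 0.24 and 0.41 beside 0.02 over all genes. On the quantile scale TIA1 rose by 1.01 ± 0.09 (limma adjusted p = 4.91e-06) and 0.86 ± 0.09 (1.51e-05) with JK and JINB8 exosomes, CNOT8 by 0.97 and 0.85, TIAL1 by 0.78 and 0.89 and ELAVL1, which stabilizes such messages, by 0.49 and 0.59; all 4 were lower on the deposited values. The 3 lower genes, picked out after their values were seen, were ZFP36 (-0.51 and -0.38), which promotes decay, ZC3H12A (-0.33 and -0.41), a nuclease that cuts IL6 messages, and ARID5A (-0.49 and -0.31), which stabilizes them. After median centring 10 were higher and 2 lower with JK, and 12 higher and 2 lower with JINB8 exosomes: ZC3H12A no longer passed with JK (-0.21, limma adjusted p = 0.0933) and ARID5A no longer with JINB8 (-0.13, limma adjusted p = 0.353). 0 of the 16 passed between the treated groups or in exosome RNA.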
